A study of Homo sapiens with 12 samples.

Results

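The subunits of the mitochondrial respiratory chain and of the ATP synthase were followed on 12 Illumina bead arrays of L-540, a human cell line long established from a Hodgkin lymphoma. Members were taken by gene symbol: NDUFA, NDUFB, NDUFC, NDUFS and NDUFV genes for complex I, SDHA to SDHD for complex II, UQCR genes and CYC1 for complex III, COX4 to COX8 genes for complex IV, ATP5F, ATP5M and ATP5P genes for complex V, the ATP synthase, and CYCS for cytochrome c. A probe was kept when its detection p-value was under 0.01 on at least 3 of the 12 arrays. This kept 88 of the 107 member probes and 69 of the 80 member genes, out of 48803 probes on the array and 8092 genes tested. Of the 69 genes, 28 belong to complex I, 3 to complex II, 10 to complex III, 10 to complex IV and 17 to complex V, and 1 encodes cytochrome c.

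The 4 groups were cells given both 10 µM perifosine and 5 µM sorafenib (the combination), cells given 5 µM sorafenib alone, cells given 10 µM perifosine alone, and untreated control cells, all harvested at 24 h with 3 arrays each, lettered A, B and C. Perifosine is an alkylphospholipid that blocks AKT at the membrane, and sorafenib is an inhibitor of several kinases. Whether a letter marks a culture of its own is not stated in the labels, and the p-values cover only how far these arrays spread, which may be technical. All groups are the same cultured line. In bulk RNA of this kind, fewer cells with a transcript and less of it per cell cannot be told apart.

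The respiratory chain passes electrons from NADH (through complex I) and from succinate (through complex II) to ubiquinone, then through complex III, the mobile carrier cytochrome c and complex IV to oxygen. Complexes I, III and IV pump protons across the inner mitochondrial membrane, and the ATP synthase lets them flow back to make ATP. Complex II is also an enzyme of the tricarboxylic acid cycle and is encoded wholly in the nucleus, while the other complexes combine nuclear subunits with a few encoded in mitochondrial DNA, which are not among the members.

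Promoters of members that the results below turn on are shown first, because nuclear respiratory genes are known for sharing binding motifs of a few transcription factors. The RefSeq table (GRCh38.p14) held the 250 bases before the first listed start for 56 of the 69 members, and 13 were not matched. SDHA and SDHD are the complex II subunits with an entry, and UQCRQ, NDUFA12, ATP5MJ and ATP5PF are members that lay lower on all arrays with sorafenib and whose promoter held a match. All are written 5′ to 3′ on the gene's own strand, and capitals mark matches on either strand to GCGCA, any base and GCGC (the motif of NRF1), CCGGAAG (the core of ETS factors such as GABP, which appears as its reverse complement in SDHD) or AAGATGGC (the motif of YY1).
SDHA (chr5:218070-218319, plus strand): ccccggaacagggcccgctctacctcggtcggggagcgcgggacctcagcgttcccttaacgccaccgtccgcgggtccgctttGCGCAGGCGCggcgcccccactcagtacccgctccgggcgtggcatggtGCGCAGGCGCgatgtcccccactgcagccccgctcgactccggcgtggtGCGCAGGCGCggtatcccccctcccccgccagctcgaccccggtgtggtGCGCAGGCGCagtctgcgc
SDHD (chr11:112086623-112086872, plus strand): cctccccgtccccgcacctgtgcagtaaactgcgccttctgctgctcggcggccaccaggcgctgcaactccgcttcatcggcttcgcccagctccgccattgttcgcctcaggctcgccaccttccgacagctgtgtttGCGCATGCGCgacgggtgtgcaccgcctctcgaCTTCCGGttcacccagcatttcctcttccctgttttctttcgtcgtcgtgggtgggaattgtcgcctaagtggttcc
UQCRQ (chr5:132866392-132866641, plus strand): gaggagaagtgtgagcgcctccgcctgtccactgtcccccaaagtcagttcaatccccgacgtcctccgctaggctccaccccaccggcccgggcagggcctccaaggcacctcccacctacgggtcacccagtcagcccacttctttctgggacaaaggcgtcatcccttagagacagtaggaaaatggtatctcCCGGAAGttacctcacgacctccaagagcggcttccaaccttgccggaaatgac
NDUFA12 (chr12:95003698-95003947, minus strand): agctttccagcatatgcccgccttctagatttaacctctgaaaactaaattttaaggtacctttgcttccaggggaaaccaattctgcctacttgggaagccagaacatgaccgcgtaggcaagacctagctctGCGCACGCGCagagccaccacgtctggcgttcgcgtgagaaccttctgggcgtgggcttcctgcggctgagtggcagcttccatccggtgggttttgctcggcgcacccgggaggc
ATP5MJ (chr14:103921530-103921779, minus strand): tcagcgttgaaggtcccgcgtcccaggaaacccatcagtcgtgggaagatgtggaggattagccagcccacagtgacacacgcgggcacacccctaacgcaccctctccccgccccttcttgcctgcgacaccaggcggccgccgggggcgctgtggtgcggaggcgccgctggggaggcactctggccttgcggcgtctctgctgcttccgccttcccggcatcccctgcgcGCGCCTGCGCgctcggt
ATP5PF (chr21:25735055-25735304, minus strand): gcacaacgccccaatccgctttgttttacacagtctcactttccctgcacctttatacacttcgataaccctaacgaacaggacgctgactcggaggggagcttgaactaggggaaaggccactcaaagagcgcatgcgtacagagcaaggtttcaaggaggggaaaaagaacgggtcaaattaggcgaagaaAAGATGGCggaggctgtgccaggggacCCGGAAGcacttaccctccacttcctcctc
The NRF1 letters were found in 12 of the 56 members (21.4%), against 5.53% of all 27305 promoters of that length in the table and 12.3% of those of the genes tested. The ETS letters were found in 15 members (26.8%), against 8.82% of all promoters and 17.4% of those tested. The YY1 letters were found in 1 member (1.79%), against 1.37% and 2.01%. At least 1 of these motifs stood in 25 members (44.6%), against 14.5% of all promoters and 28.9% of those tested. SDHA held the NRF1 letters 4 times, in a repeated stretch. NDUFB1, COX7B and ATP5MC1, also lower on all arrays with sorafenib, held none of the NRF1, ETS or YY1 letters and are not printed. The letters GGGCGG (Sp factors) were found in 53.6% of members, against 42.3% of all promoters and 67.9% of those tested. These are matches of letters in a window, and no binding was measured.

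Of the 69 kept genes, 59 were detected on all 12 arrays. The other 10 were ATP5MK, COX7B, CYCS, NDUFB1, NDUFC1, NDUFV3, SDHD, UQCR11, UQCRB and UQCRC2. Just inside the limit, ATP5MK was detected on 9 arrays, and just outside it, the probe of NDUFS1 and further probes of ATP5MG and UQCRB were detected on 2. The genes not kept were NDUFA5, NDUFB4, NDUFC2, NDUFS1 and NDUFS6 of complex I and COX4I2, COX6A2, COX6B2, COX7A1, COX7B2 and COX8C of complex IV. These COX genes are isoforms known from other tissues, such as muscle (COX6A2, COX7A1), lung (COX4I2) and testis (COX6B2, COX7B2, COX8C). SDHB was not analysed here. ATP5F1EP2, UQCRBP1 and UQCRHL are near-identical copies of ATP5F1E, UQCRB and UQCRH, so their values are uncertain as to source.

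Of 5 listed markers of a Hodgkin cell line, 2 were measured: TNFRSF8, which encodes CD30, and another that passed the test in no comparison. TNFRSF8 had log2 intensities of 9.30, 9.08 and 9.21 with the combination and 9.29, 8.86 and 8.93 with sorafenib. It read 9.78, 9.53 and 10.01 with perifosine and 10.26, 9.72 and 10.04 in control cells (arrays A, B and C, as in all lists below). It was lower with the combination (log2 change -0.81, adjusted p = 0.0408) and with sorafenib (-0.98, adjusted p = 0.0295, limma), and with 1 array left out at a time it passed in 2 and 8 of 12 fits. Of the markers of other cell types, 5 of 8 of T and NK cells, the lineage reported for L-540, were measured, 1 of 6 of B cells, 2 of 4 of monocytes and macrophages, 1 of 4 of fibroblasts and 0 of 3 of epithelium, and none of the 9 passed the test in any comparison. The arrays detected 9291 to 11657 probes. Combination array B stood apart, with the fewest detected probes, the highest median intensity (648.7, against 404.3 to 579.3 on the other 11 arrays) and an array weight in limma of 0.291 (0.664 to 1.69 on the others).

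Across the members, values with the combination lay below control, those with sorafenib slightly below it and those with perifosine close to it. The median log2 change was -0.38 with the combination, -0.07 with sorafenib and -0.02 with perifosine, against 0.01, 0.00 and 0.00 over all genes tested. With the combination 63 of the 69 genes were below control, with sorafenib 47 and with perifosine 41. SDHC was the single member past the threshold with the combination (limma, adjusted p under 0.05 over all 8092 genes), and it fell. The share of all genes called lower in that comparison was 1.1%, and 3.41% were called in either direction. With the combination 16 of the 69 members (23.2%) had an unadjusted p under 0.05, a share near that of all genes (20.9%). No member passed with sorafenib, against 1.47% of all genes. With the letter as a block, which pairs same-lettered arrays of all groups, SDHC passed with sorafenib (limma, adjusted p = 0.0423). With sorafenib 2 members (2.90%) had an unadjusted p under 0.05, against 16.9% of all genes. No member passed with perifosine (0.0% of all genes called), and 0 members were under the unadjusted limit, against 2.45% of all genes. Each gene's spread was estimated over all 12 arrays, so a low combination array B also widened the standard error for sorafenib and perifosine. That array was over 1 log2 unit below the control mean for 53.6% of members and 7.4% of all genes. The shares of members and of all genes are therefore not on equal terms. Without that array SDHC and ATP5MF passed with sorafenib (limma, adjusted p = 0.0482 and 0.0447), and 260 of all genes were called.

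The shift with the combination rested on array B. As the difference from the control mean, the median over the 69 members was -0.10, -1.08 and -0.09 on combination arrays A, B and C. It was -0.15, -0.08 and -0.08 on the sorafenib arrays, -0.09, 0.01 and 0.02 on the perifosine arrays, and -0.02, -0.01 and 0.01 on the control arrays. Combination array B lay far below the other 11, whose medians lay between -0.15 and 0.02. Without array B, the median log2 change with the combination was -0.10, and 46 of the 69 genes were below control.

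**Figure D1:**
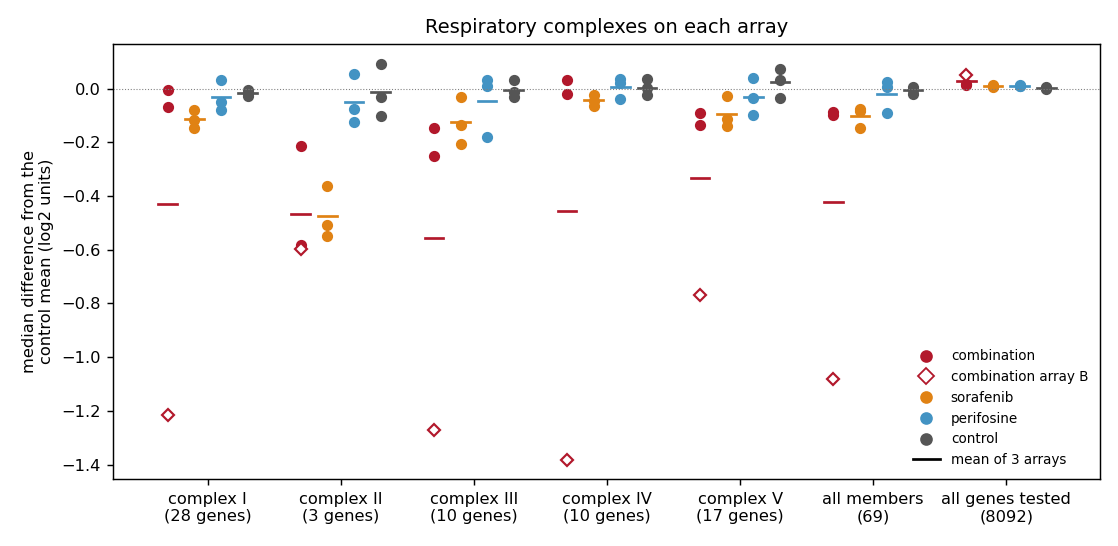
Median difference from the control mean (log2 units, vertical axis) over the genes of each complex, all members and all genes tested, on each array. Points are arrays, bars are the mean of 3 arrays, and the open diamond is combination array B, which lies at -1.21, -1.27, -1.38 and -0.77 for complexes I, III, IV and V, and at -0.60 for complex II, where combination array A (-0.58) and the sorafenib arrays (-0.51, -0.55 and -0.36) are also low.

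The complexes differed in how far array B departed. On combination array B the median difference from the control mean was -1.21 in complex I, -0.60 in complex II, -1.27 in complex III, -1.38 in complex IV and -0.77 in complex V. In complexes I, III, IV and V, arrays A and C lay between -0.25 and 0.03. In complex II, array B was close to array A (-0.58), both medians being the value of SDHC among 3 genes, and array C was at -0.21. On array B, 37 of the 69 members (53.6%) were over 1 log2 unit below the control mean, against 7.4% of all genes tested, and 53 members (76.8%) had their lowest value of all 12 arrays there, against 16.9%. On arrays A and C, 1 member (SDHD) and 0 members were that far below, against 1.57% and 1.61% of all genes.

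Within complexes I, III and V, the median of the subunits classed as core or F1 lay closer to control on array B than that of the other subunits. In complex I, the 5 core subunits NDUFS3, NDUFS7, NDUFS8, NDUFV1 and NDUFV2, which carry the flavin and most of the iron-sulfur clusters, had a median of -0.56 on array B, against -1.32 for the other 23. In complex III, CYC1, the cytochrome c1 that carries a haem, and the structural core proteins UQCRC1 and UQCRC2 had a median of -0.30, against -1.76 for the other 7. Those 7 include UQCRBP1 and UQCRHL, the near-identical copies of UQCRB and UQCRH. They also include UQCR10, whose kept probes differed in direction with the combination. In the ATP synthase, ATP5F1A, ATP5F1B, ATP5F1C and ATP5F1D of the catalytic F1 sector had a median of 0.04, with ATP5F1D low at -0.90, against -0.97 for the other 13. Those 13 include ATP5F1EP2, the near-identical copy of the F1 subunit epsilon, which was at -0.66. All 10 measured subunits of complex IV are nuclear-encoded accessory subunits, and all 10 had their lowest value on array B.

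The farthest single departures on array B are named after their values were seen. Array B lay below the mean of arrays A and C by a log2 difference of -2.98 for COX7B, -2.80 for NDUFC1, -2.37 for NDUFA3, -2.12 for ATP5ME and -2.09 for UQCRB. On array B, COX7B, NDUFC1 and UQCRB were undetected, with values below the lowest detected there (7.76), so the size of their departures is uncertain. Against this, ATP5F1A (0.59), NDUFA10 (0.49), UQCR11 (0.47) and SDHA (0.33) lay above that mean on array B, and SDHC (-0.00) did not depart from it. Other families also had low values on that array, but not all: the median difference from the control mean was -0.40 over 72 cytosolic ribosomal protein genes, -0.42 over 72 mitochondrial ribosomal protein genes, while over 33 proteasome genes it was -0.09, above arrays A (-0.16) and C (-0.13). Of the 69 members, 51 are among the 2023 brightest genes tested, whose median on array B was 0.09. Whether detection or the brightness of array B has a part in these values was not tested.

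**Figure D2:**
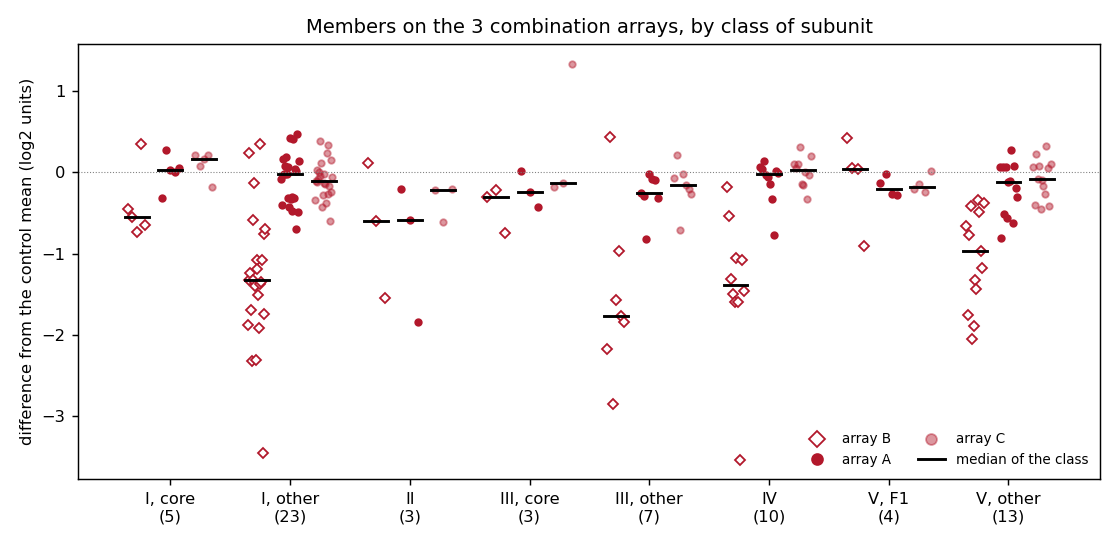
Difference of each member from its control mean (log2 units) on combination arrays B (open diamonds), A and C (filled circles, C paler), by class of subunit, with the number of genes in brackets and the class median as a bar. CYCS is not drawn. On array B the bars lie at -0.56 and -1.32 for core and other subunits of complex I, -0.30 and -1.76 in complex III, and 0.04 and -0.97 for ATP5F1A to ATP5F1D (V, F1) and the other 13 genes of the ATP synthase.

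In complex II, which oxidises succinate, the median log2 change was -0.60 with the combination, with or without array B, -0.51 with sorafenib and -0.04 with perifosine. With 3 genes a median is the value of a single gene, for the combination that of SDHC. On array B the other genes parted, SDHD lying below all control arrays and SDHA above them. All 3 measured genes were below control with the combination and with sorafenib. SDHC, a membrane anchor of the complex, had log2 intensities of 11.95, 11.93 and 11.92 with the combination, 12.02, 11.81 and 12.10 with sorafenib, 12.41, 12.58 and 12.47 with perifosine and 12.49, 12.42 and 12.69 in control cells. All 6 arrays with sorafenib lay below all 6 without it, with no overlap. SDHC averaged 11.93 ± 0.0124 with the combination, 11.98 ± 0.154 with sorafenib, 12.49 ± 0.0900 with perifosine and 12.53 ± 0.139 in control cells (SD, n = 3 each).

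The fall of SDHC with the combination was -0.60 ± 0.136 (log2 change ± SE, limma, adjusted p = 0.0372), or 0.661 of the control intensity. Sorafenib alone gave -0.55 ± 0.136 (adjusted p = 0.0653, and 0.0423 with the letter as a block). Perifosine alone gave -0.04 (adjusted p = 1.00). The combination differed from perifosine by -0.55 (adjusted p = 0.0558) and from sorafenib by -0.04 (adjusted p = 1.00). Without combination array B the change with the combination was again -0.60 but its adjusted p was 0.0604, and that with sorafenib was 0.0482. Over 24 alternatives the change with the combination passed the threshold in 12, with adjusted p from 0.00727 to 0.155. With 1 array left out at a time, it missed the threshold without any array of the combination or of the control, without perifosine array B or C and without sorafenib array A (adjusted p from 0.0524 to 0.142), and the change stayed between -0.65 and -0.52. A further probe of SDHC read 9.68, 8.35 and 9.11 with the combination, 9.69, 9.43 and 9.06 with sorafenib, 10.24, 9.67 and 9.61 with perifosine and 10.46, 9.99 and 9.82 in control cells. On this probe all arrays with the combination and all with sorafenib were below the 3 control arrays too, but perifosine overlapped with sorafenib, and the combination's change was -1.04 (adjusted p = 0.110 over all kept probes).

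SDHD encodes the other membrane anchor, which forms the ubiquinone site with SDHC. It read 7.07, 7.36 and 8.71 with the combination, 8.09, 8.55 and 8.55 with sorafenib, 9.22, 9.32 and 8.43 with perifosine and 9.20, 8.81 and 8.71 in control cells. Both groups with sorafenib lay below all control arrays, combination array C only just, and the probe was detected on 1 of the 3 combination arrays. Its change with the combination was -1.20 ± 0.379 (adjusted p = 0.104; -1.02 without array B) and with sorafenib -0.51 (adjusted p = 0.550). SDHA, the flavoprotein that oxidises succinate, read 12.14, 12.47 and 12.13 with the combination, 12.04, 11.80 and 12.17 with sorafenib, 12.09, 12.21 and 12.27 with perifosine and 12.32, 12.29 and 12.44 in control cells. Sorafenib and perifosine lay below all control arrays, and the combination overlapped with control through array B, its highest value. The change of SDHA was -0.10 ± 0.1498 with the combination (adjusted p = 0.755), -0.35 with sorafenib (adjusted p = 0.271) and -0.16 with perifosine (adjusted p = 1.00).

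**Figure D3:**
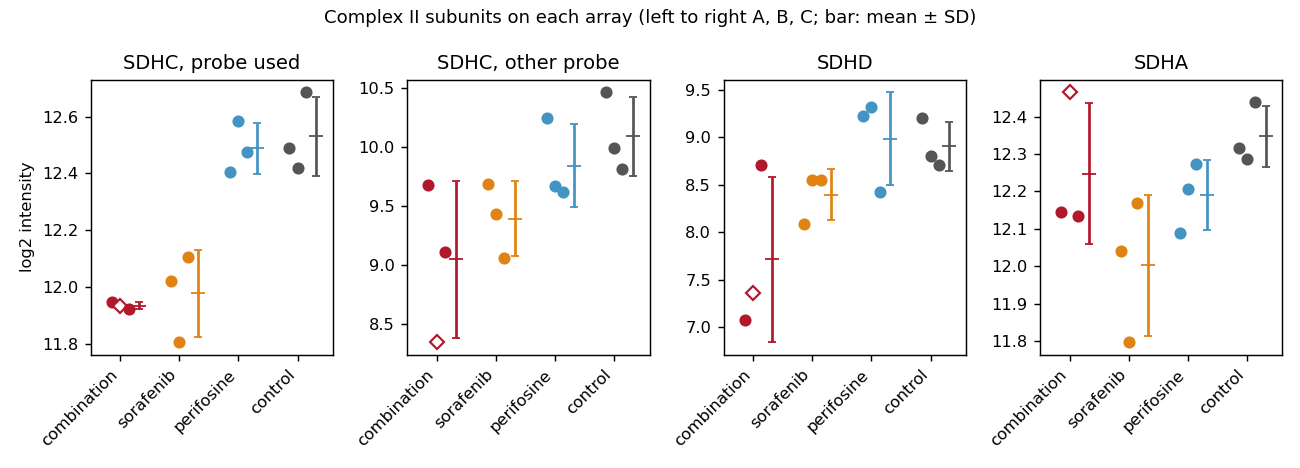
Log2 intensity of SDHC (the probe used and a further probe), SDHD and SDHA on each array, arrays A, B and C from left to right within a group, with the mean ± SD of 3 arrays as a bar; the open diamond is combination array B, and each panel has its own axis. The 3 combination arrays of SDHC sit at 11.92 to 11.95 and the sorafenib arrays at 11.81 to 12.10, below all perifosine and control arrays (12.41 to 12.69).

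In complex I, which oxidises NADH, the median log2 change of the 28 genes was -0.35 with the combination (-0.05 without array B), -0.08 with sorafenib and -0.01 with perifosine. None passed the threshold, and 8 of the 28 (28.6%, against 20.9% of all genes) had an unadjusted p under 0.05 with the combination, all lower: NDUFB3, NDUFAB1, NDUFC1, NDUFS5, NDUFB6, NDUFB11, NDUFB2 and NDUFB1. NDUFB3, an accessory subunit of the membrane arm, read 13.43, 12.00 and 13.53 with the combination, 13.52, 13.75 and 13.52 with sorafenib, 13.78, 14.05 and 13.69 with perifosine and 13.91, 13.94 and 13.88 in control cells. All arrays with the combination or sorafenib lay below control, array B by far the most. Its change was -0.92 ± 0.321 with the combination (adjusted p = 0.133; -0.43 without array B) and -0.31 with sorafenib (adjusted p = 0.690).

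NDUFAB1, the mitochondrial acyl carrier protein that is also a subunit of complex I, read 11.22, 10.14 and 11.11 with the combination, 11.05, 11.42 and 10.99 with sorafenib, 11.29, 11.29 and 11.39 with perifosine and 11.67, 11.54 and 11.39 in control cells. The combination and perifosine lay below all control arrays, perifosine only just, and sorafenib overlapped with control. Its change with the combination was -0.71 ± 0.249 (adjusted p = 0.135), and -0.37 without array B. NDUFB1, an accessory subunit of the membrane arm, read 7.96, 6.09 and 8.11 with the combination, 7.55, 7.92 and 7.12 with sorafenib, 8.29, 8.67 and 8.65 with perifosine and 8.17, 8.34 and 8.66 in control cells. All its arrays with sorafenib, alone or combined, lay below all others, and the probe was undetected on 1 array each of the combination and of sorafenib. Its change was -1.003 ± 0.435 with the combination (adjusted p = 0.215; -0.35 without array B) and -0.86 with sorafenib (adjusted p = 0.349; 0.0605 without combination array B).

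NDUFC1, another membrane-arm subunit, named here after its values were seen, read 9.45, 6.70 and 9.55 with the combination, 9.54, 9.77 and 9.67 with sorafenib, 9.76, 9.88 and 9.85 with perifosine and 10.10, 10.08 and 10.27 in control cells. The 3 treatments all lay below the control arrays, and the probe was undetected on combination array B. Its change with the combination was -1.58 ± 0.561 (adjusted p = 0.139) and, without array B, -0.65 (adjusted p = 0.0395), when 173 of all genes tested were called. NDUFB5, a further subunit of the membrane arm, ran the other way, with 14.40, 14.33 and 14.23 with the combination, 14.44, 14.25 and 14.26 with sorafenib, 14.47, 14.01 and 13.95 with perifosine and 14.03, 14.04 and 13.89 in control cells. It was above all control arrays with the combination (0.33 ± 0.158, adjusted p = 0.257) and with sorafenib (0.33, adjusted p = 0.322), array B included. NDUFA10, an accessory subunit, read 8.92, 9.56 and 9.21 with the combination, 9.16, 9.37 and 10.02 with sorafenib, 9.29, 8.67 and 9.05 with perifosine and 9.73, 9.22 and 9.02 in control cells, with overlap between all groups and changes of -0.09, 0.19 and -0.32. NDUFV1, the core subunit that binds NADH and flavin, was at 0.19 with the combination and 0.10 with sorafenib (adjusted p = 0.521 and 0.804).

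**Figure D4:**
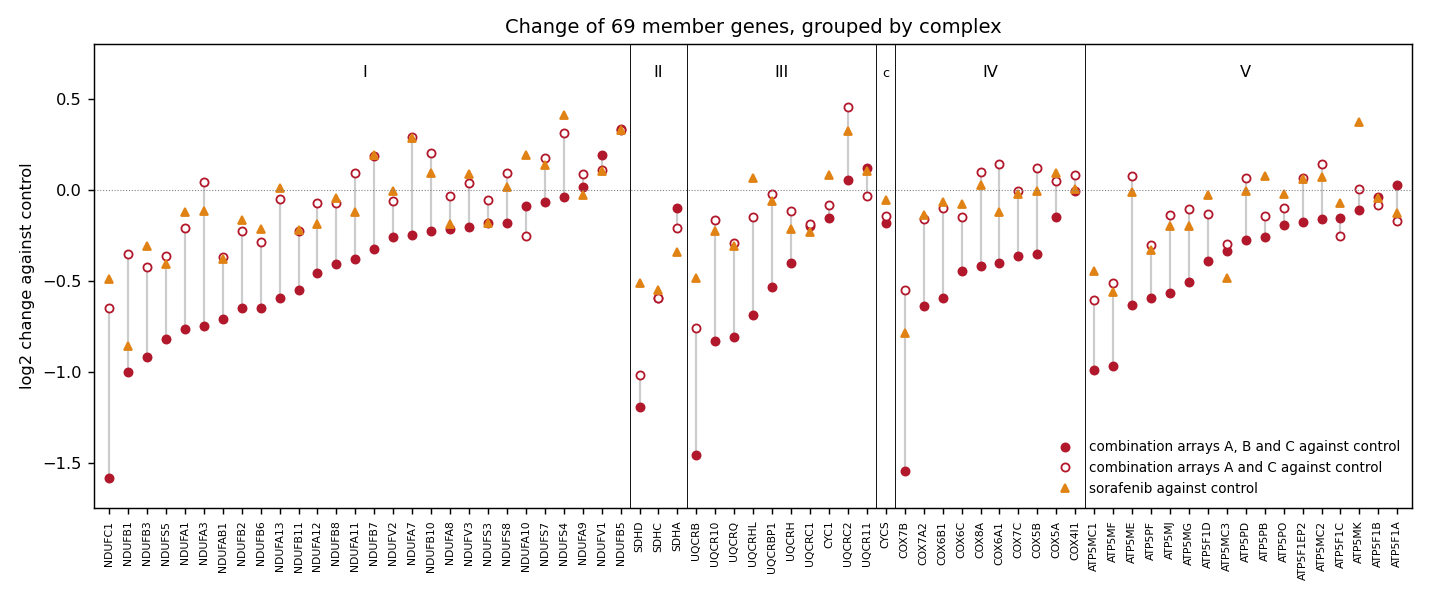
Log2 change against control of the 69 member genes, by complex (c is cytochrome c) and ordered within a complex by the change with the combination. Filled circles use all 3 combination arrays, open circles only arrays A and C, and triangles are sorafenib alone; the median over the members is -0.38 for filled circles, -0.10 for open circles and -0.07 for triangles.

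In complex III, which passes electrons from ubiquinol to cytochrome c, the median log2 change of the 10 genes was -0.47 with the combination (-0.13 without array B), -0.14 with sorafenib and -0.07 with perifosine, and none passed the threshold. UQCRB, a small ubiquinone-binding subunit, read 9.03, 7.00 and 9.14 with the combination, 9.38, 9.53 and 9.17 with sorafenib, 9.61, 9.73 and 9.93 with perifosine and 10.01, 9.65 and 9.88 in control cells. All arrays with sorafenib, alone or combined, lay below all others, and the probe was undetected on 1 combination array. Its change was -1.46 ± 0.436 with the combination (adjusted p = 0.0888) and -0.48 with sorafenib (adjusted p = 0.639); without array B the combination's change was -0.76 (adjusted p = 0.0470). UQCRQ, another small subunit, read 15.10, 13.56 and 15.14 with the combination, 15.05, 15.07 and 15.18 with sorafenib, 15.28, 15.39 and 15.32 with perifosine and 15.24, 15.34 and 15.65 in control cells. It showed the same separation of arrays, with changes of -0.81 ± 0.333 with the combination (adjusted p = 0.194; -0.29 without array B) and -0.31 with sorafenib (adjusted p = 0.709).

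The core protein UQCRC1 read 12.14, 12.16 and 12.24 with the combination, 12.11, 12.03 and 12.30 with sorafenib, 12.05, 12.41 and 12.51 with perifosine and 12.37, 12.48 and 12.29 in control cells. The combination lay below all control arrays with array B close to A and C, and sorafenib and perifosine overlapped with control. Its changes were -0.20 ± 0.151 with the combination, -0.24 with sorafenib and -0.05 with perifosine (adjusted p = 0.489, 0.474 and 1.00). UQCR10 was the member whose probes differed most. The probe used read 10.79, 8.87 and 10.97 with the combination, 10.60, 10.82 and 11.03 with sorafenib, 10.74, 11.00 and 11.11 with perifosine and 10.95, 11.17 and 11.01 in control cells. It gave -0.83 ± 0.422 with the combination (-0.17 without array B), while its other kept probes gave 0.30 and -0.08, so no direction is drawn for this gene.

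CYCS, the mobile carrier cytochrome c, had values that overlapped between all 4 groups. It read 7.77, 8.10 and 8.64 with the combination, 7.72, 8.27 and 8.90 with sorafenib, 7.17, 8.84 and 9.00 with perifosine and 8.01, 8.43 and 8.63 in control cells. In each group array A was lowest and array C highest. Its changes were -0.18 ± 0.451, -0.06 and -0.02 with the combination, sorafenib and perifosine (adjusted p = 0.863, 0.964 and 1.00), each of which turned sign when a single array was left out.

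In complex IV, which reduces oxygen, the median log2 change of the 10 genes was -0.41 with the combination (0.02 without array B), -0.05 with sorafenib and 0.03 with perifosine, and none passed the threshold. COX7B, a small subunit, read 9.32, 6.56 and 9.76 with the combination, 9.04, 9.74 and 9.12 with sorafenib, 9.85, 9.98 and 9.94 with perifosine and 10.20, 9.81 and 10.26 in control cells. All arrays with sorafenib, alone or combined, lay below all others, by little for combination array C and sorafenib array B. The COX7B probe was undetected on combination array B. Its change was -1.55 ± 0.618 with the combination (adjusted p = 0.183; -0.55 without array B, adjusted p = 0.235) and -0.79 with sorafenib (adjusted p = 0.578).

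COX6C read 13.42, 12.52 and 13.42 with the combination, 13.50, 13.49 and 13.49 with sorafenib, 13.41, 13.77 and 13.71 with perifosine and 13.58, 13.62 and 13.53 in control cells. The combination and sorafenib lay below control, and its change with the combination was -0.45 ± 0.219 (adjusted p = 0.270; -0.15 without array B). COX4I1 and COX5A, also nuclear-encoded subunits, were nearer to control on array B. COX4I1 read 15.78, 15.53 and 15.82 with the combination, 15.85, 15.60 and 15.72 with sorafenib, 15.63, 15.65 and 15.57 with perifosine and 15.78, 15.66 and 15.73 in control cells. COX5A read 14.07, 13.49 and 14.09 with the combination, 13.94, 14.25 and 14.19 with sorafenib, 14.00, 14.02 and 14.03 with perifosine and 13.97, 14.17 and 13.96 in control cells. Perifosine was below all control arrays for COX4I1 (-0.11 ± 0.133, adjusted p = 1.00), and all other groups overlapped with control for both genes, with changes between -0.15 and 0.09.

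In the ATP synthase, the median log2 change of the 17 genes was -0.28 with the combination (-0.13 without array B), -0.05 with sorafenib and -0.02 with perifosine. The catalytic subunits ATP5F1A and ATP5F1B were at 0.03 and -0.04 with the combination. The c-ring that turns as protons pass is built from a protein encoded by ATP5MC1, ATP5MC2 and ATP5MC3, and these genes differed. ATP5MC1 read 12.60, 11.66 and 13.02 with the combination, 12.91, 12.85 and 13.15 with sorafenib, 13.27, 13.37 and 13.46 with perifosine and 13.28, 13.45 and 13.51 in control cells. On a dimmer probe of ATP5MC1, combination array C (7.83) and sorafenib array B (7.63) lay above control array A (7.62). The change on that dimmer probe was -1.39 with the combination. On the probe used for ATP5MC1, all arrays with sorafenib lay below all others, and array B was again lowest. Its change was -0.99 ± 0.272 with the combination (adjusted p = 0.0703; -0.60 without array B, adjusted p = 0.0888) and -0.44 with sorafenib (adjusted p = 0.444).

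ATP5MC2 read 14.91, 14.08 and 15.07 with the combination, 14.89, 14.89 and 14.97 with sorafenib, 14.91, 15.003 and 15.06 with perifosine and 14.86, 14.76 and 14.92 in control cells, with array B the one low value. Its change with the combination was -0.16 ± 0.216 (0.14 without array B), and a dimmer probe gave -0.88 (adjusted p = 0.231 over all kept probes). ATP5MC3 read 8.24, 8.34 and 8.66 with the combination, 7.74, 8.52 and 8.53 with sorafenib, 8.46, 8.46 and 8.82 with perifosine and 8.38, 8.92 and 8.95 in control cells. The groups overlapped, and the changes were -0.34 ± 0.242 with the combination and -0.48 with sorafenib (adjusted p = 0.462 and 0.339).

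ATP5MF, subunit f of the membrane sector, read 13.35, 12.03 and 13.45 with the combination, 13.19, 13.44 and 13.42 with sorafenib, 13.98, 13.86 and 13.97 with perifosine and 13.85, 13.80 and 14.09 in control cells. All arrays with sorafenib, alone or combined, lay below every array without it. Its change was -0.97 ± 0.301 with the combination (adjusted p = 0.0969; -0.51 without array B) and -0.56 with sorafenib (adjusted p = 0.373; 0.0447 without combination array B). ATP5PF, coupling factor 6 of the peripheral stalk, read 14.79, 13.81 and 14.57 with the combination, 14.81, 14.62 and 14.54 with sorafenib, 14.86, 14.86 and 15.01 with perifosine and 14.94, 14.98 and 15.05 in control cells. It separated the arrays in the same way, with changes of -0.59 ± 0.215 with the combination (adjusted p = 0.146; -0.30 without array B) and -0.33 with sorafenib (adjusted p = 0.481), and its other kept probes gave -0.52 and -1.02 with the combination, array B included.

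Counting genes whose groups did not overlap, 21 members were lower on all combination arrays than on all control arrays (10.5% of all genes tested) and 1 was higher (13.8%). With sorafenib 20 were lower (11.8%) and 2, NDUFA7 and NDUFB5, were higher (13.1%). With perifosine 6 were lower (3.29%) and 2 higher (4.18%). Without combination array B, 22 were lower (16.8%) and 5 higher (19.2%). Of the 21 and 20 lower members, 16 were in both lists, which share their control arrays.

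Setting the 6 arrays with sorafenib against the 6 without it, 11 members were lower with no overlap: NDUFA12, NDUFB1 and NDUFS5 of complex I, SDHC, UQCRB and UQCRQ of complex III, COX7B, and ATP5MC1, ATP5MF, ATP5MJ and ATP5PF. That is 11 of 69 against 3.53% of all genes tested, and 0 members were higher, against 5.03%. Without combination array B these 11 remained the lower ones (4.96% of all genes) and NDUFA7 was higher (6.29%). Over the 11, the log2 change ran from -0.86 to -0.19 with sorafenib (median -0.44), from -0.76 to -0.07 with the combination without array B (median -0.37) and from -0.17 to 0.15 with perifosine. None passed the threshold with sorafenib (adjusted p from 0.0653 to 0.781). The 11 were singled out by these values, so their levels are a description. Further probes of SDHC and ATP5MC1, described above, did not separate the 6 arrays with sorafenib from the 6 without it. The 3 not yet described were NDUFA12 and NDUFS5, accessory subunits of complex I, and ATP5MJ, a small subunit of the ATP synthase. NDUFS5 read 13.80, 12.55 and 14.05 with the combination, 13.83, 13.92 and 13.89 with sorafenib, 14.19, 14.17 and 14.38 with perifosine and 14.26, 14.41 and 14.21 in control cells, with all 6 arrays with sorafenib below the rest. NDUFA12 read 13.79, 12.58 and 13.70 with the combination, 13.75, 13.60 and 13.54 with sorafenib, 13.86, 13.89 and 13.88 with perifosine and 13.80, 13.81 and 13.84 in control cells. ATP5MJ read 11.10, 9.78 and 11.03 with the combination, 11.11, 10.94 and 10.96 with sorafenib, 11.15, 11.13 and 11.19 with perifosine and 11.14, 11.13 and 11.35 in control cells. In these last genes the gap between the arrays with and without sorafenib was narrow, with combination array A and sorafenib array A next to control. The promoters of the 11 were in the RefSeq table for 7, of which NDUFA12 and ATP5MJ held the NRF1 letters and UQCRQ and ATP5PF the ETS letters, as printed above. The others with an entry, NDUFB1, COX7B and ATP5MC1, held neither. Among all 56 members with an entry, 21.4% held the NRF1 letters and 26.8% the ETS letters. Whether the motifs go with the separation by sorafenib was not tested.

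**Figure D5:**
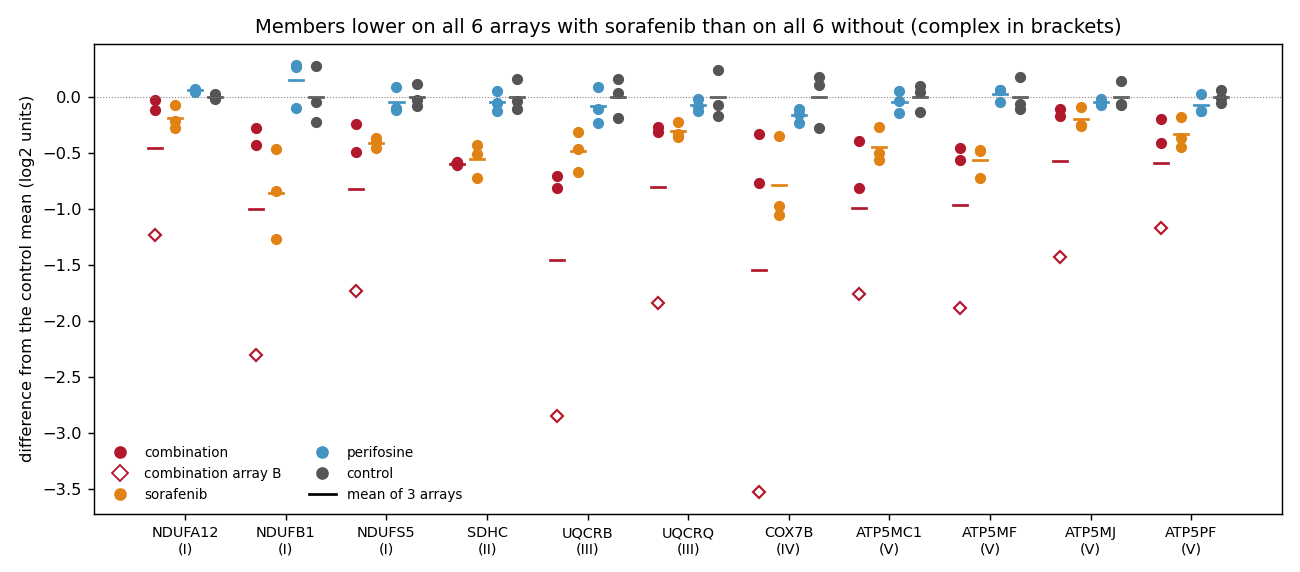
Difference from the control mean (log2 units) of the 11 members whose 6 arrays with sorafenib all lie below the 6 without it, with the complex in brackets. Points are arrays, bars the mean of 3 arrays and the open diamond combination array B. That array lies lowest for every gene but SDHC and reaches -3.53 for COX7B, whose probe was undetected there.

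Comparing treatments with each other, no member passed the threshold. The combination against perifosine gave a median of -0.37 (-0.07 without array B), with 2.39% of all genes called and 16 members (23.2%) at an unadjusted p under 0.05, against 18.6% of all genes. The combination against sorafenib gave -0.32 (0.00 without array B), with 0.0% called and 1 member, UQCRB, at an unadjusted p under 0.05, against 2.03% of all genes. Perifosine against sorafenib gave 0.08, with 0.976% called and 2 members (2.90%), SDHC and NDUFB1, at an unadjusted p under 0.05, against 16.2% of all genes. Here too the spread of each gene includes combination array B. Without that array ATP5MF and NDUFB1 passed for perifosine against sorafenib (limma, adjusted p = 0.0428 and 0.0422), and 214 of all genes were called. The interaction (how far the change with the combination departs from the 2 single-drug changes added together) had a median of -0.33 over the members (0.00 without array B), with 0.0% of all genes called and 0 members at an unadjusted p under 0.05, against 2.01% of all genes. For SDHC the interaction was -0.00 ± 0.192 (SE).

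Among genes that serve the same complexes, 43 of 50 listed assembly factors were tested. With the combination 1 fell and 1 rose, 2 of 43 being a share near the 3.41% of all genes called, and 0 passed with sorafenib. COX16, which helps build complex IV, read 9.80, 8.83 and 10.15 with the combination, 9.90, 10.10 and 10.06 with sorafenib, 10.77, 10.64 and 10.83 with perifosine and 10.72, 10.65 and 10.70 in control cells. All 6 arrays with sorafenib were lower than the 6 without it, and it fell with the combination (-1.10, adjusted p = 0.0440; with sorafenib -0.67, adjusted p = 0.212). With 1 array left out at a time, COX16 passed with the combination in 2 of 12 fits (without combination array B or C; adjusted p from 0.0302 to 0.127 over the 12), and without array B its change was -0.72. COX19, a factor for copper delivery to complex IV, read 10.43, 10.60 and 10.40 with the combination, 10.18, 10.18 and 10.14 with sorafenib, 9.85, 9.60 and 9.68 with perifosine and 9.74, 9.25 and 9.50 in control cells. It was higher on all 6 arrays with sorafenib than on the 6 without it, and it rose with the combination (0.98, adjusted p = 0.00903; with sorafenib 0.67, adjusted p = 0.0519). COX19 passed with the combination in all 12 such fits (adjusted p from 0.0119 to 0.0449). SURF1, another complex IV assembly factor, was at 0.37 with the combination and 0.50 with sorafenib (adjusted p = 0.167 and 0.106).

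Of 23 genes of the tricarboxylic acid cycle and pyruvate dehydrogenase, 18 were tested and 0 passed with any treatment, with medians of -0.04 with the combination, -0.15 with sorafenib and 0.03 with perifosine. OGDH, a subunit of 2-oxoglutarate dehydrogenase, was at -0.40 with the combination and -0.40 with sorafenib (adjusted p = 0.187 and 0.241). PDK3, a kinase that inhibits pyruvate dehydrogenase, was at -0.54 with the combination (adjusted p = 0.336), and PDHB, a subunit of that enzyme, at -0.30 with sorafenib (adjusted p = 0.298). Of 18 regulators of respiratory gene transcription and of mitochondrial DNA, 14 were tested and 0 passed, with medians of -0.04, -0.05 and 0.00 with the combination, sorafenib and perifosine. GABPB1, a subunit of the ETS factor GABP, was at 0.38 with the combination (adjusted p = 0.233), POLRMT, the mitochondrial RNA polymerase, at -0.29 (adjusted p = 0.300) and TWNK, the mitochondrial helicase, at -0.79 with sorafenib (adjusted p = 0.197).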

How the data were processed

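Gene expression was measured on Illumina bead arrays in 12 samples of L-540 cells. The deposited tables hold, per the file headers, a probe intensity (linear scale, not normalized between arrays) and a detection p-value for each array, and a further deposited table holds the authors' normalized intensity. BeadStudio was used, per the submitters' processing notes; background subtraction and annotation version are not given in the sources used here.

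Groups were taken from the sample labels. Intensities were normalized with limma's neqc (normexp background correction with control moments inferred from detection p-values, offset 16, quantile normalization, log2). Probes with a detection p-value under 0.01 on at least 3 arrays were kept (11904, of which 10117 had a symbol), and each gene took its brightest probe (8092 genes). Probes with several symbols (13) or none (20692) were not named. limma's lmFit and eBayes fitted one mean per group over all 12 arrays, and Benjamini-Hochberg adjusted p-values were taken over all genes within each of 7 comparisons at 0.05. The letter was not in this fit, so adjusted p-values are unpaired except where a letter block is named. A log2 change is the difference between group means, with its standard error (SE). The 3 arrays per group limit the precision. The fit was tested on simulated data with independent noise, no outlying array and no pairing by letter. That test therefore does not cover an array such as combination array B.

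The members, the subunit classes and the other gene lists were chosen with earlier results of these data known. Values on every array are given for members past the threshold, for those with the largest moderated t per complex, 2 with the combination, 2 with sorafenib and 1 with perifosine, and for the 3 whose probes differed most; exceptions are named as such. Probes were not checked against near-identical processed copies of the members.

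The labels give the same letters in each group. Residuals of same-lettered arrays correlated above 0.1 for all letters between sorafenib and control (0.28, 0.33 and 0.19), perifosine and control (0.35, 0.32 and 0.27) and sorafenib and perifosine (0.39, 0.29 and 0.23). With the combination they were 0.28, -0.15 and -0.10 against control, 0.23, -0.16 and 0.08 against perifosine and 0.32, -0.10 and 0.17 against sorafenib. The departure of array B enters the residuals of combination arrays A and C, so these values cannot show whether the combination is paired. Same-lettered arrays went together for all letters only outside the combination. The letter block nevertheless covered the arrays of every group, those of the combination included. Its results for the combination therefore assume a pairing that these values cannot show. The alternatives were median scaling, no background correction, the authors' normalized table, an offset of 50, other detection filters, array weights, a letter block, only the groups compared, and each array left out. Leaving combination array B out before normalization was chosen after seeing the data. Analyses used R 4.3.3, limma 3.58.1, statmod 1.5.0, Python 3.11.15, pandas 2.3.3, numpy 2.4.6 and matplotlib 3.10.9.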

Additional observations from a re-analysis of the deposited data

How the results depend on the processing

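Over the alternatives, 34 counts of called members moved and 133 did not. Of the medians, 6 moved by over 0.288 log2 units and 161 stayed within that limit. The limit is the SD of the member median between arrays, pooled over the 4 groups, and array B set most of it. That SD was 0.571 with the combination, 0.0392 with sorafenib, 0.0624 with perifosine and 0.0126 in control cells. A median within the limit may thus have moved by more than the groups without array B spread. Of the values of named genes, 617 kept their direction and side of the threshold, 21 newly passed it, 12 no longer passed it and 13 turned sign. The count with the combination (1) became 5 with the authors' normalized table, 5 with no background correction, 2 with detection on all 12 arrays, 2 with the letter as a replicate block (SDHC and ATP5MC1), 2 with array B left out before normalization, 0 with no detection filter, 0 with only the groups compared, and 0 to 2 with each array left out in turn. The count with sorafenib (0) became 1 with the authors' table, no background correction, detection on all 12 arrays, array weights or the block, 2 with array B left out before normalization, and 0 to 2 with each array left out. For the combination against perifosine (0) it became 4 with the authors' table, 4 with no background correction, 1 with detection on all 12 arrays, array weights or the block, and 0 to 1 with each array left out. For perifosine against sorafenib (0) it became 1 with the authors' table, no background correction or array weights, 2 with array B left out before normalization, and 0 to 2 with each array left out. With array B left out before normalization the median was -0.072 for the combination against perifosine, 0.0033 against sorafenib and -0.0021 for the interaction; with each array left out these ran from -0.55 to -0.074, -0.50 to 0.0037 and -0.51 to -0.0024, the highest without combination array B. The median of the combination against control was -0.10 without array B and -0.38 with it. This move is just within the limit only because array B itself widened the limit. The sign turned for UQCRC1 with perifosine (0.0040 with array weights, -0.15 to 0.081 with each array left out) and for CYCS with perifosine (0.032 with median scaling, 0.040 with the authors' table, 0.040 with no background correction, 0.0046 with an offset of 50, 0.21 with array weights, -0.35 to 0.56 with each array left out), the combination (-0.42 to 0.018) and sorafenib (-0.36 to 0.23). Over all genes, the 276 calls with the combination became 650 with the block, 544 with the authors' table, 545 with no background correction, 428 with detection on all 12 arrays, 174 with array B left out before normalization, 78 with no filter and 16 with only the groups compared, and the 119 with sorafenib became 404 with the block. The cause of these moves was not tested. The fit of only the groups compared gives no value for the interaction. Precision is limited by 3 arrays a group, and for SDHD, UQCRB, COX7B, NDUFB1 and NDUFC1 by signals near the detection limit on some arrays.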
